A study of Arabidopsis thaliana with 12 samples.

Results

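The COP9 signalosome is encoded in Arabidopsis thaliana by 10 genes, 1 each for subunits 1, 2, 3, 4, 7 and 8 and a pair of copies each for subunits 5 and 6. These 10 genes were taken by locus from the 32833 genes of the deposited expression table, and all 10 passed the filter on low values that left 23827 genes to test. They were selected because several were lower in the mutant than in the wild type under heat, so that contrast is given below as a description, without a test. The RNA came from whole seedlings 7 days old, of the wild type Col-0 (wt) or of a line that carries the label hop1 hop2 hop3, and each genotype was sampled unheated (control) or with 38 °C during its final 3 h (heat). HOP proteins are co-chaperones that link the chaperones Hsp70 and Hsp90. Each of the 4 groups (wt control, wt heat, hop control, hop heat) had 3 libraries, and the labels give neither the mutant alleles nor the origin of the replicates, and a p-value here reflects the spread among libraries that may be technical.

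The COP9 signalosome removes the ubiquitin-like protein NEDD8, called RUB in plants, from cullins, the scaffolds of a large class of ubiquitin ligases. Attachment of RUB activates a cullin ligase, and its removal lets the exchange factor CAND1 bind the cullin and its substrate adaptor be replaced. In the complex, CSN5 carries the metalloprotease site that cuts RUB off, CSN6 is the related subunit without that site, and CSN1, CSN2, CSN3, CSN4, CSN7 and CSN8 are scaffold subunits with a PCI domain. The same architecture is found in the lid of the 26S proteasome and in the translation factor eIF3. Arabidopsis seedlings that lack the complex develop in the dark as if they were in light.

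Sequences are shown first for the pair of CSN5 genes, because they carry the catalytic site and moved differently under heat. The metalloprotease pattern (a histidine, any residue, a histidine, 10 residues and an aspartate) was found in the annotated proteins of CSN5A and CSN5B, at residues 142 to 155 of each, and in none of the other 8 subunit proteins, the CSN6 copies included. The coding bases for residues 138 to 159 lie in 1 exon in each gene, at chr1:8111292-8111357 on the minus strand for CSN5A and at chr1:26853081-26853146 on the plus strand for CSN5B (RefSeq, build TAIR10.1). They are printed 5′ to 3′ in lower case, with capitals at the 5 of 66 bases that differ between the copies.
CSN5A: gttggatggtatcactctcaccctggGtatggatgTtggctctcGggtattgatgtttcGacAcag
CSN5B: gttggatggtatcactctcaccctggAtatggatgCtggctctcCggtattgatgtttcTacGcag
Over the whole protein the CSN5 copies were 85.7% identical and the CSN6 copies 87.4%. The longest run of bases shared by the transcripts was 35 for CSN5 and 44 for CSN6, so no window of 50 bases was common to a pair. The read length is not given in the sources used here, so reads short enough to fall within such a run could have been shared between copies.

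The labels were checked against the targeted genes. HOP2 (AT1G62740) stood at 483 to 635 normalized fragments in wt control and 6.36 to 7.68 in hop control, but at 4046 to 5128 in hop heat against 7318 to 8629 in wt heat. HOP3 (AT4G12400) stood at 75.2 to 88.5 in wt control and 0 to 9.39 in hop control, and at 1216 to 1346 in hop heat against 89090.3 to 122589 in wt heat. HOP1 (AT1G12270) was not lower in the mutant: the unheated libraries held 538 to 726 (wt) and 554 to 676 (hop), and the heated ones 991 to 1359 (wt) and 1654 to 2299 (hop). Transcript levels alone therefore do not match the label for HOP1 in either condition, nor for HOP2 under heat, and hop below means the libraries labelled hop1 hop2 hop3. Depth was 26074669 to 38722218 fragments per library. Green-tissue markers were abundant in every library and none of the markers of green tissue, root hair, endodermis or seed was at 0 throughout a group.

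Levels in the deposited table are fragment counts divided by a size factor for each library, called normalized fragments here. Tests used limma on log2(value + 1), fitted to all genes and all 12 libraries, and called genes are those whose p, after Benjamini-Hochberg adjustment, was under 0.05. The authors' size factors hold the median log2 change of all tested genes near 0 under heat (-0.08 in wt and -0.06 in hop), whereas scaling by total fragments alone puts that median at -0.94 and -0.97 and lowers the share of heat calls that are higher from 48.1% to 17.9% in wt and from 48.6% to 17.5% in hop. Heat changes below are therefore relative to the authors' scaling. By total fragments the rises of CSN1, CSN3, CSN4, CSN6A and CSN8 in wt, and of CSN3, CSN4, CSN5B and CSN8 in hop, turn to falls, but all 16 heat calls among the subunit genes keep their sign relative to the shifted median.

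**Figure D1:**
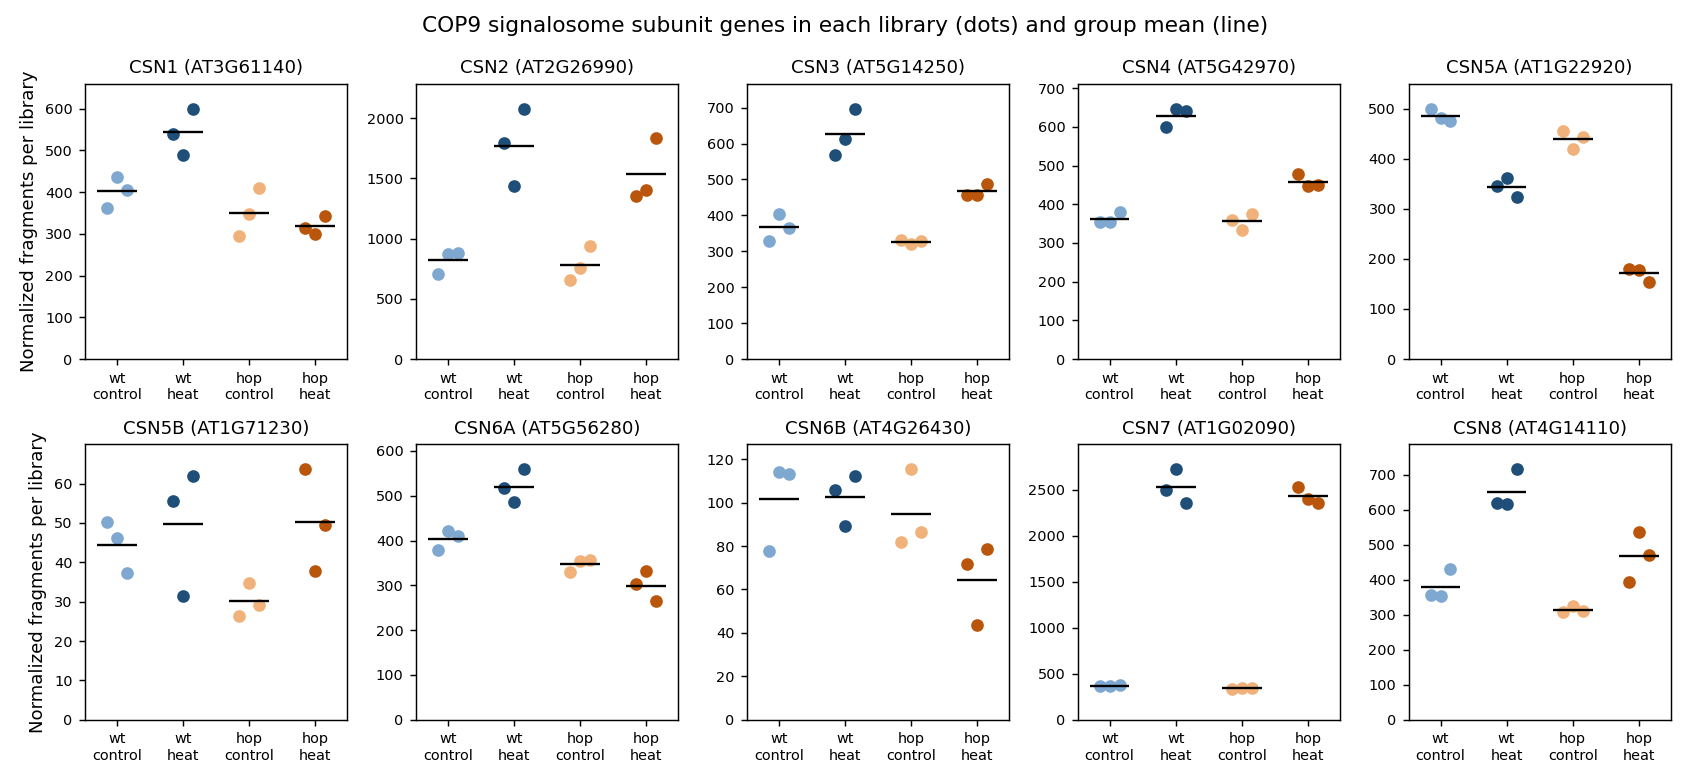
Normalized fragments (y axis, linear from 0, own scale for each gene) of the 10 subunit genes in every library, with 4 groups of 3 libraries on the x axis, dots for libraries and lines for group means. CSN7 stands at 336 to 377 in the control libraries and at 2353 to 2718 in the heated ones, while CSN5A is lowest in the 3 hop heat libraries.

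Compared per kilobase of transcript, the subunit genes lay close together in unheated wild-type seedlings apart from the second copies. CSN2 was at 449.6 ± 53.3 normalized fragments per kb (SD, n = 3) and CSN8 at 430.4 ± 48.8, and these 2 overlapped between libraries. CSN6A at 319.8 ± 16.9 and CSN5A at 314 ± 8.36 overlapped with each other and lay below them. CSN3 (219.99 ± 22.7) overlapped with CSN4 (216 ± 8.72), and CSN7 (204 ± 3.05) overlapped with CSN1 (203 ± 18.8). The second copies were lowest, CSN6B at 68.0 ± 13.97 and CSN5B at 31.9 ± 4.75 per kb, and overlapped with no neighbour in the order. In hop control the order was the same but for CSN5A and CSN6A, and CSN3 and CSN4, which changed places within each pair. The CSN5A and CSN6A libraries again overlapped, while CSN4 and CSN3 did not.

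CSN7 showed by far the largest heat change among the subunit genes. CSN7 (AT1G02090, chr1:387277-389808, minus strand, 8 exons) encodes a PCI subunit of the scaffold. Its values in wt were 366, 369 and 377 normalized fragments without heat and 2499, 2718 and 2354 with heat. The hop libraries held 336, 348 and 343 without heat and 2532, 2393 and 2353 with heat. Every heated library was above every control library in both genotypes, and the heated libraries of the 2 genotypes overlapped. The log2 change was 2.76 ± 0.08 (SE) in wt (limma adjusted p = 1.59e-13) and 2.82 ± 0.08 in hop (limma adjusted p = 1.15e-13). The 2 heat contrasts share no library with each other, but each uses 1 of the heated groups on which the genes were selected. All 20 alternative settings kept both calls.

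The start of CSN7 lies 3 bases from the start of SBI1 (AT1G02100), which is read from the opposite strand and encodes a leucine carboxyl methyltransferase. SBI1 had a mean of 612 ± 18.5 normalized fragments (SD, n = 3) in wt without heat and 1143 ± 89.7 with heat, a log2 change of 0.90 (limma adjusted p = 6.16e-07), and of 642 ± 42.4 and 1277 ± 129 in hop. The gene 363 bases past the 3′ end of CSN7, AT1G02080, read toward it from the opposite strand, was at 1580.2 ± 262 in wt control and 1447 ± 86.8 in wt heat (limma adjusted p = 0.40).

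A pattern of the heat shock element, the site bound by heat shock factors, was searched in the 250 bases before each annotated gene start. GAANNTTC, which reads the same on both strands, was present once in CSN7 and once in CSN6B and in none of the other 8 genes, and TTCNNGAA, also the same on both strands, in none of the 10. GAANNTTC occurs in 9.55% and TTCNNGAA in 7.68% of the equal windows of 27443 protein-coding genes, and either in 16.1%. The 30 bases around each match are shown with the pattern in capitals because the genes behave differently: CSN7 rose under heat and CSN6B did not. The CSN7 match lies at chr1:389823-389852 on the minus strand and starts 33 bases before the gene, inside the annotated SBI1 gene. The CSN6B match lies at chr4:13354946-13354975 on the plus strand and starts 35 bases before the gene.
CSN7: tgaaggaagaaGAATATTCaatagtctctc
CSN6B: ttaaaatacaaGAAATTTCatattaaaaaa
These matches describe letters in the reference and are not measured sites.

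Of the other scaffold genes, CSN2, CSN3, CSN4 and CSN8 rose under heat in both genotypes. CSN2 (AT2G26990, chr2:11519388-11522616, minus strand, 10 exons) contacts the cullin in the known structures of the human complex. In wt its 3 control libraries held 706, 871 and 878 normalized fragments and its heated ones 1789.7, 1439 and 2078. The hop values were 656, 757 and 938 in control and 1357, 1403 and 1836 in heat. Heated libraries lay above control libraries in each genotype and the genotypes overlapped in each condition. The log2 change was 1.102 ± 0.16 (SE) in wt (limma adjusted p = 2.33e-05) and 0.97 ± 0.16 in hop (limma adjusted p = 8.11e-05).

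CSN3 (AT5G14250, chr5:4597868-4600835, plus strand, 11 exons) had 329, 405 and 365 normalized fragments in the wt controls and 567, 614 and 697 in the heated wt libraries. The hop libraries held 331, 320.3 and 328 in control and 457, 457 and 487 in heat. Heat raised it in every library of both genotypes above the controls, and the 3 hop heat libraries lay below the 3 wt heat libraries. The log2 heat change was 0.77 ± 0.10 (SE) in wt (limma adjusted p = 7.68e-06) and 0.52 ± 0.10 in hop (limma adjusted p = 0.00038).

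CSN4 (AT5G42970, chr5:17237153-17240816, minus strand, 13 exons) stood at 353, 355 and 379 in wt control and 599, 647 and 642 in wt heat. Those of hop held 359, 334 and 374 in control and 478, 447 and 449 in heat. The control libraries of the genotypes overlapped and the heated libraries did not. CSN4 changed on the log2 scale by 0.79 ± 0.09 (SE) in wt (limma adjusted p = 1.06e-06) and 0.36 ± 0.09 in hop (limma adjusted p = 0.0019).

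CSN8 (AT4G14110, chr4:8132880-8134988, minus strand, 5 exons), the smallest subunit with 197 residues, stood at 356, 355 and 430.3 in wt control and 619.9, 615 and 716 in wt heat. In hop it stood at 308, 324 and 311 in control and 395, 535 and 471 in heat. The hop libraries lay below the wt libraries in both conditions, without overlap. The log2 heat change was 0.77 ± 0.12 (SE) in wt (limma adjusted p = 3.39e-05) and 0.56 ± 0.12 in hop (limma adjusted p = 0.00069).

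CSN1 (AT3G61140, chr3:22626167-22630141, plus strand, 7 exons), a scaffold subunit, was called under heat in wt and not in hop. Its wt values were 362, 436 and 406 in control and 539, 489.7 and 599.7 in heat, and its hop values were 294, 347 and 409 in control and 314, 300.4 and 342 in heat. In wt the heated libraries were all above the controls, and in hop the 2 conditions overlapped. The log2 heat change was 0.43 ± 0.13 (SE) in wt (limma adjusted p = 0.0067) and -0.12 ± 0.13 in hop (limma adjusted p = 0.40). The difference between these heat changes, -0.56 ± 0.18 on the log2 scale, contains the contrast on which the genes were selected. That selection favoured high values in heated wt and low values in heated hop libraries, so the call in wt and its absence in hop are descriptions.

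CSN5A, the main catalytic copy, moved against the scaffold genes. CSN5A (AT1G22920, chr1:8109574-8112061, minus strand, 6 exons) had 500.1, 481 and 475 normalized fragments in the wt controls and 346, 361 and 323 in the heated wt libraries. The mutant libraries held 456, 420.1 and 443 in control and 180.2, 178 and 155 in heat. Heat lowered every library of both genotypes below its controls, and the hop heat libraries were the lowest of all 12. CSN5A fell by 0.50 ± 0.10 (SE) on the log2 scale in wt (limma adjusted p = 0.00030) and fell by 1.36 ± 0.10 in hop (limma adjusted p = 6.85e-09). Both falls kept their call in all 20 alternative settings. The hop fall rests on the heated hop libraries, in which the selection favoured low values, so its p and calls are a description.

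CSN5B (AT1G71230, chr1:26852406-26854419, plus strand, 6 exons), the second copy, was low throughout. The wt libraries held 50.2, 46.1 and 37.2 normalized fragments in control and 55.5, 31.4 and 61.9 in heat, which overlap. In hop it stood at 26.5, 34.7 and 29.2 in control and 63.6, 37.7 and 49.5 in heat, which do not. On the log2 scale the heat change was 0.11 ± 0.27 (SE) in wt (limma adjusted p = 0.73) and 0.70 ± 0.27 in hop (limma adjusted p = 0.030). The call in hop was lost when hop control replicate 1 or 3, or hop heat replicate 1 or 3, was left out, with values of 0.52 to 0.69.

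The share of CSN5B in the fragments of both CSN5 copies was 8.37% ± 0.98 (SD, n = 3) in wt control and 12.6% ± 4.17 in wt heat. It was 6.44% ± 1.09 in hop control and 22.6% ± 4.55 in hop heat. The 3 hop heat libraries had shares of 26.1%, 17.4% and 24.2%, with exact 95% binomial intervals from 11.7% to 33.1% that cover counting error only, and did not overlap with the hop control libraries at 5.49% to 7.62%. The exact two-sided permutation test gave p = 0.30 in wt and p = 0.10 in hop, the smallest p that 3 against 3 libraries allow. Both comparisons use heated libraries on which the genes were selected. The shares of the second copies, here and for CSN6 below, are therefore descriptions.

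The CSN6 copies encode the noncatalytic partner of CSN5. CSN6A (AT5G56280, chr5:22783384-22785605, minus strand, 9 exons) stood at 379.65, 420.3 and 411 in wt control and 517, 486 and 559 in wt heat, without overlap. In hop it stood at 329, 354 and 357 in control and 302, 332 and 264 in heat, which overlap. The log2 heat change was 0.37 ± 0.10 (SE) in wt (limma adjusted p = 0.0059) and -0.22 ± 0.10 in hop (limma adjusted p = 0.080). The latter was called by edgeR with TMM (-0.31) and when hop heat replicate 2 was left out (-0.29). Both heat changes use libraries in which the selection favoured high (wt heat) or low (hop heat) values, and are descriptions. The last 43 bases of CSN6A overlap WRKY2 (AT5G56270) on the opposite strand, whose mean level in wt was 198 normalized fragments without and 11.5 with heat, and the library kit was stranded per the labels.

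CSN6B (AT4G26430, chr4:13354992-13357629, plus strand, 9 exons) stood at 77.6, 114 and 113 in wt control and 106, 89.3 and 112 in wt heat. In hop it stood at 82.0, 115 and 86.4 in control and 71.6, 43.5 and 78.4 in heat. The conditions overlapped in wt and did not in hop, where the highest heated library (78.4) lay just under the lowest control library (82.0). For CSN6B the log2 heat change was 0.03 ± 0.23 (SE) in wt (limma adjusted p = 0.93) and -0.57 ± 0.23 in hop (limma adjusted p = 0.036). That call in hop was lost when hop control replicate 2 (-0.42) or hop heat replicate 2 (-0.32) was left out, and in a fit of the hop groups alone. As for CSN5A, the hop fall rests on heated libraries in which the selection favoured low values, so its p and call are a description. The share of CSN6B in both CSN6 copies was 19.98% ± 2.61 (SD, n = 3) in control and 16.4% ± 0.78 in heat for wt, and 21.3% ± 2.80 and 17.9% ± 5.76 for hop, with exact two-sided permutation p = 0.20 for heat in wt and p = 0.40 in hop.

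**Figure D2:**
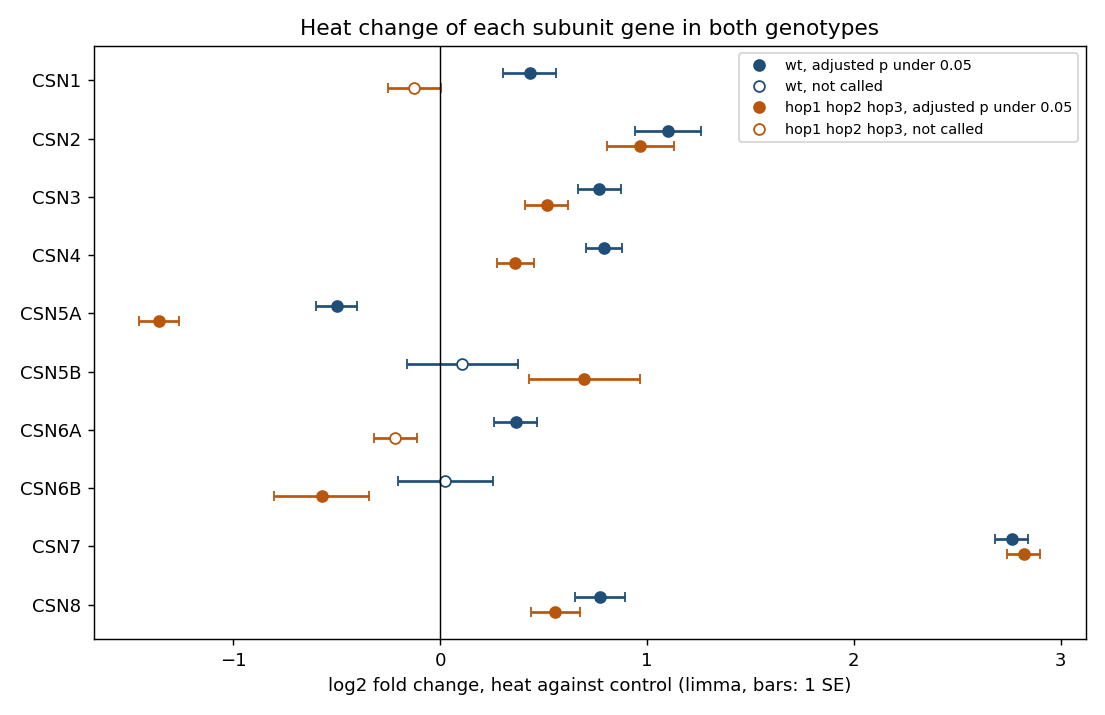
Log2 fold change under heat (x axis, limma, authors' scaling, bars 1 SE) for each subunit gene (y axis) in wt (blue) and hop1 hop2 hop3 (orange), with filled dots for an adjusted p under 0.05. CSN7 stands at 2.76 and 2.82 and CSN5A at -0.50 and -1.36; by total fragments alone the filled dots of CSN1, CSN3, CSN4, CSN6A and CSN8 in wt and of CSN3, CSN4, CSN5B and CSN8 in hop lie below 0.

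In wt, 7 of the 10 genes were called higher under heat, where 33.2% of all tested genes were, and 1 was called lower, where 35.8% were. In hop, 6 of 10 were called higher against 33.3% of all tested genes, and 2 were called lower against 35.2%. The median log2 heat change of the 10 genes was 0.60 in wt and 0.44 in hop, beside -0.08 and -0.06 for all tested genes. These counts and medians, and the heat p of each subunit gene, use the heated libraries on which the genes were selected.

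The unequal heat changes altered the proportions of the subunit transcripts. Summing both copies of CSN5 and of CSN6 and dividing by transcript length, the highest subunit was 2.31 ± 0.10 times (SD, n = 3) the lowest in wt without heat and 5.46 ± 0.50 times with heat. The same ratio in hop was 2.51 ± 0.19 and 9.20 ± 0.40. CSN7 made up 8.32% ± 0.40 of the summed level in wt control and 28.7% ± 3.32 in wt heat, and went from 8.57% ± 0.40 to 34.8% ± 2.25 in hop. CSN5 went the other way, from 14.1% ± 1.36 to 5.30% ± 0.32 in wt and from 13.9% ± 1.002 to 3.82% ± 0.46 in hop. These shares depend on the length used: divided by coding length, CSN7 was at 14.1% in wt control and 42.1% in wt heat. The summed level without CSN7 went from 2253 ± 139 to 3472 ± 325 normalized fragments per kb in wt and from 2015 ± 122 to 2512 ± 156 in hop.

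**Figure D3:**
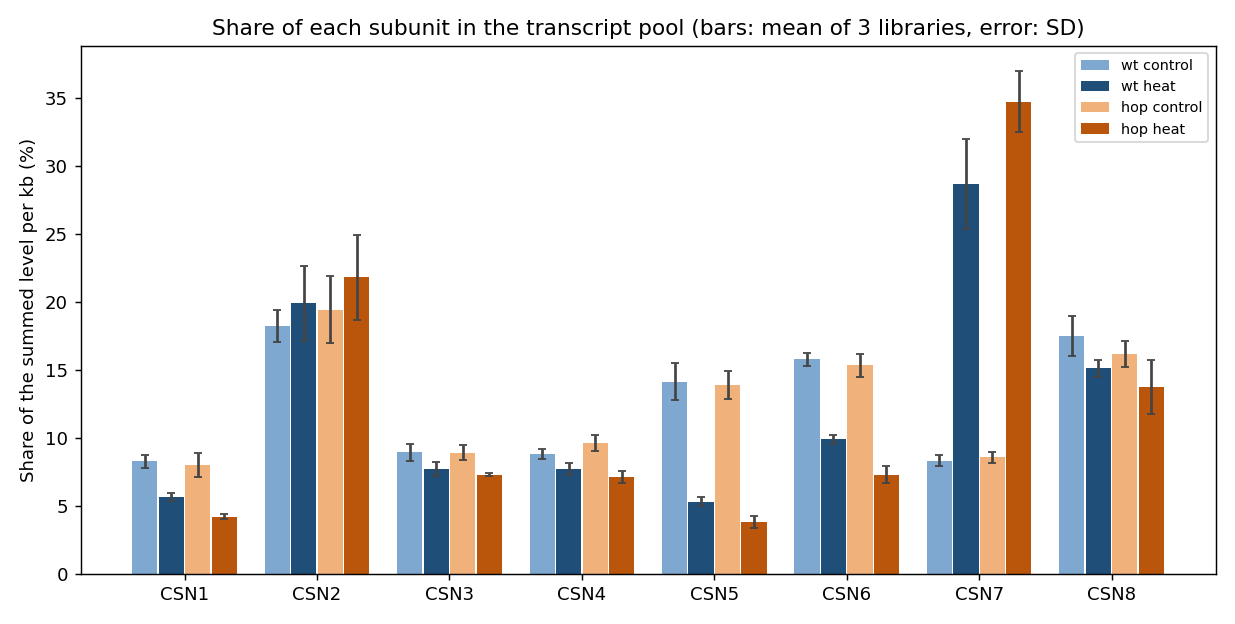
Share of each of the 8 subunits in the summed level per kilobase of transcript (y axis, percent; copies of CSN5 and CSN6 added) in the 4 groups (bars, mean of 3 libraries; error bars, SD). CSN7 goes from 8.32% to 28.7% in wt and CSN5 from 14.1% to 5.30%, with 34.8% and 3.82% in hop heat.

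The contrast between the genotypes under control conditions shares no library with the one used for selection. In it limma called none of the 10 genes, where 0.831% of all tested genes were called. An unadjusted limma p under 0.05 was found for 1 of the 10 (CSN8) and for 2458 of all 23827 tested genes. edgeR and DESeq2 also called none. All 10 log2 differences were below 0, from -0.55 for CSN5B to -0.03 for CSN4, with a median of -0.15 beside 0.01 for all tested genes. The genes were measured in the same libraries, so their signs are not independent of each other. The hop control libraries lay below all wt control libraries, without overlap, for 5 of the 10 genes (CSN5A, CSN5B, CSN6A, CSN7 and CSN8), and this held for 8.9% of all tested genes. The difference was -0.27 ± 0.12 (SE) for CSN8 (limma adjusted p = 0.45), -0.22 ± 0.10 for CSN6A (adjusted p = 0.50 by limma), -0.14 ± 0.10 for CSN5A (adjusted p = 0.73 by limma) and -0.11 ± 0.08 for CSN7 (adjusted p = 0.74 by limma). These differences of under 0.3 on the log2 scale, and that of -0.55 for CSN5B, did not pass the test over all genes. CSN5B rested on 31 to 75 fragments in the control libraries.

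Under heat, the contrast on which the genes were selected, the members are described without a test. Over all tested genes 4.89% were called lower in hop and 3.73% higher, so that 43.3% of the calls were higher; by total fragments 16.2% were. The hop heat libraries lay below the wt heat libraries, without overlap, for 7 of the 10 subunit genes (CSN1, CSN3, CSN4, CSN5A, CSN6A, CSN6B and CSN8), which the selection favours, and for 11.7% of all tested genes. The log2 difference of hop heat from wt heat was -1.002 ± 0.10 (SE) for CSN5A, -0.80 ± 0.10 for CSN6A, -0.76 ± 0.13 for CSN1 and -0.70 ± 0.23 for CSN6B. It was -0.48 ± 0.12 for CSN8, -0.46 ± 0.09 for CSN4 and -0.42 ± 0.10 for CSN3. CSN2 at -0.20 ± 0.16, CSN7 at -0.06 ± 0.08 and CSN5B at 0.04 ± 0.27 were closest to 0. Of these 3, CSN7 and CSN2 had the largest heat rises among the subunit genes in wt, while CSN5B was not called under heat there. This order comes from the contrast used for selection and is a description.

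Other measures were compared between the heated groups. Depth was 27399408 to 29946694 fragments in wt heat and 32112317 to 38722218 in hop heat. The summed level of both root-hair markers was 374 to 455 normalized fragments in wt heat and 256 to 341 in hop heat. That of the 3 endodermis markers was 699 to 944 in wt heat and 501 to 943 in hop heat. The 3 green-tissue markers, none at 0, summed to between 1031660 and 1369270 in wt heat and between 1319680 and 1667130 in hop heat. The 4 seed storage genes summed to 33.0 to 614 in wt heat and 103 to 372 in hop heat. Depth and the root-hair sum did not overlap between the heated groups, while the endodermis, green-tissue and seed sums did. Among single markers, RBCS1A did not overlap, at 353072 to 475757 in wt heat and 554632 to 675349 in hop heat. Nor did EXPA7 of the root hair (344 to 412 against 239 to 305) or SCR of the endodermis (219 to 244 against 180 to 213). The other markers overlapped, COBL9 of the root hair included. By limma, 1 green-tissue marker was called higher in hop and no other marker was called. The part of these measures in the difference was not tested, and in whole seedlings fewer cells of a type and less RNA per cell cannot be told apart.

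The difference between the heat changes of the genotypes was called for 12 genes in all, 0.0504% of those tested, and CSN5A was 1 of them. Its log2 difference was -0.86 ± 0.14 (SE), which includes the heated libraries used for selection and is given as a description. Leaving out any 1 library other than hop heat replicate 3 ended that call. The same difference was -0.60 ± 0.32 for CSN6B, -0.58 ± 0.15 for CSN6A, -0.56 ± 0.18 for CSN1 and -0.43 ± 0.13 for CSN4. It was 0.59 ± 0.38 for CSN5B and 0.06 ± 0.11 for CSN7.

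The genes of the cycle that attaches and removes RUB changed with heat in both directions. The counts of this and the following lists stand beside 33.2% of all tested genes called higher and 35.8% lower in wt, and 33.3% and 35.2% in hop. Of 11 listed genes 10 were tested; 6 rose and 4 fell in wt, and 6 rose and 3 fell in hop. RUB1 (AT1G31340), which encodes the modifier, rose by 0.80 ± 0.11 (SE) on the log2 scale in wt (limma adjusted p = 1.02e-05), from 518 to 609 normalized fragments up to 946 to 979. ECR1, a subunit of the activating enzyme, rose by 0.76 ± 0.09, its partner AXR1 by 0.47 ± 0.10 and the conjugating enzyme RCE1 by 0.47 ± 0.08. By total fragments these rises turn to falls. CAND1 (AT2G02560) fell by 0.69 ± 0.11 in wt (limma adjusted p = 5.07e-05) and by 0.47 ± 0.11 in hop. The second conjugating enzyme gene RCE2 fell by 1.20 ± 0.31 and the RUB protease gene DEN1 by 0.82 ± 0.14 in wt. Under heat, 4.89% of all tested genes were called lower in hop than in wt and 3.73% higher. AAR3 (AT3G28970), which encodes a protein like the RUB ligase component DCN1, was the 1 gene of this list called in that contrast. It stood at 160 to 162 normalized fragments in wt heat and 109 to 117 in hop heat, a log2 difference of -0.52 ± 0.11 (limma adjusted p = 0.0086).

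Among the substrates, 4 of the 8 tested genes for cullins and their shared ligase subunits rose under heat in wt and 1 fell, and 4 rose and none fell in hop. CUL2 (AT1G02980) went from 0.91 to 4.30 normalized fragments in wt control to 190.3 to 228 in wt heat, and from 0.85 to 2.83 in hop control to 339.5 to 371 in hop heat. CUL4 (AT5G46210), the scaffold of ligases with DDB1, went from 1647 to 1796 up to 5456 to 6017 in wt, a log2 change of 1.72 ± 0.10 (limma adjusted p = 3.27e-10), and rose by 2.0003 ± 0.10 in hop. CUL1 (AT4G02570), the scaffold of ligases with F-box proteins, rose by 0.80 ± 0.08 in wt and 0.87 ± 0.08 in hop, which turn to -0.08 and -0.05 by total fragments. The adaptor gene ASK1 rose by 1.2998 ± 0.14 in wt. CUL3A fell by 0.32 ± 0.11 in wt (limma adjusted p = 0.023), lost without wt control replicate 3 or wt heat replicate 2, and its change in hop was -0.20 ± 0.11 (limma adjusted p = 0.14), called by edgeR with TMM (-0.28) and without hop heat replicate 3 (-0.32). None of the 8 was called between the genotypes by limma, with 4 at an unadjusted p under 0.05 under heat and 0 in control, where 5765 and 2458 of all 23827 tested genes were.

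DDB1, COP1, the SPA proteins and DET1 act with the signalosome in repressing light development. Of the 12 genes listed around them, 10 rose and 2 fell under heat in wt and 9 rose and 2 fell in hop. The 12 also hold HY5 and HYH, which are not such repressors and rose in both genotypes. Those that fell were COP1 and DET1 in both. COP1 (AT2G32950), the ubiquitin ligase of this group, fell by 0.39 ± 0.12 (SE) in wt (limma adjusted p = 0.011) and by 0.39 ± 0.12 in hop (limma adjusted p = 0.011), where leaving out replicate 3 of hop control (-0.30) or replicate 2 of hop heat (-0.27) ended the call. HY5 (AT5G11260), the transcription factor that COP1 marks for degradation, went from 90.2 to 100.4 normalized fragments in wt control up to 369 to 435 in wt heat, a log2 change of 2.08 ± 0.15 (limma adjusted p = 4.88e-09), and rose by 2.15 ± 0.15 in hop. SPA3 rose by 2.37 ± 0.12 in wt and 2.45 ± 0.12 in hop. In control, 0.831% of all tested genes were called between the genotypes. HYH (AT3G17609), the homologue of HY5, was the 1 gene of this list called between them, in control, at 22.7 to 31.0 in wt and 49.5 to 60.4 in hop. Its log2 difference there was 0.93 ± 0.17 (limma adjusted p = 0.019). The call was lost without replicate 2 or 3 of wt control or replicate 1 or 3 of hop control, with values of 0.79 to 0.999. It was also lost in a fit of the control groups alone and by library size (0.87).

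Of the 24 F-box and BTB genes, which encode substrate adaptors of CUL1 and CUL3 ligases, 10 rose and 9 fell under heat in wt and 9 rose and 11 fell in hop, shares near those of all tested genes. The blue-light receptor ZTL rose by 1.99 ± 0.12 (SE) in wt, its relative FKF1 fell by 1.96 ± 0.30 and the auxin receptor AFB1 fell by 2.21 ± 0.13. Under heat, 2 were called lower in hop than in wt, where 4.89% of all tested genes were. BPM5 (AT5G21010), a BTB adaptor of CUL3, stood at 416 to 445 normalized fragments in wt heat and 239 to 293 in hop heat, a log2 difference of -0.67 ± 0.10 (limma adjusted p = 0.0017). BPM2 differed by -0.41 ± 0.10 (limma adjusted p = 0.024), a call lost without wt heat replicate 1 or 2 or hop heat replicate 1 or 2, with values of -0.43 to -0.34.

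The related complexes were set beside the signalosome. Of the 13 genes of the proteasome lid 6 rose and 2 fell under heat in wt and 5 rose and 3 fell in hop, with RPN6 at 1357 to 1479 normalized fragments in the wt controls and 11218 to 13278 in the heated wt libraries. RPN6 (AT1G29150) is a PCI subunit, and its log2 change was 3.10 ± 0.10 (SE) in wt and 3.11 ± 0.10 in hop. RPN9A rose by 1.63 ± 0.08 and RPN3B fell by 1.97 ± 0.12 in wt. Of the 13 tested genes of eIF3, 10 rose and 1 fell in wt and 9 rose and 2 fell in hop, and EIF3G1, EIF3E and EIF3C1 rose by 1.03, 0.94 and 0.84 in wt, of which EIF3C1 turns to a fall by total fragments. Between the genotypes none of either list was called by limma. An unadjusted p under 0.05 was found for 0 lid genes in either condition, and for 3 eIF3 genes in control and 1 under heat. Of all 23827 tested genes, 2458 had such a p in control and 5765 under heat. The median log2 difference of hop from wt in control was 0.03 for the lid and 0.13 for eIF3, beside -0.15 for the signalosome. In the other lists it was -0.04 (RUB cycle), -0.02 (cullins), 0.13 (DDB1 group) and 0.10 (F-box and BTB). The medians under heat were -0.0010 for the lid and 0.13 for eIF3, beside -0.47 for the signalosome, whose members were selected on that contrast. For the RUB cycle, cullin, DDB1 and F-box and BTB lists they were -0.13, -0.01, 0.11 and -0.05.

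**Figure D4:**
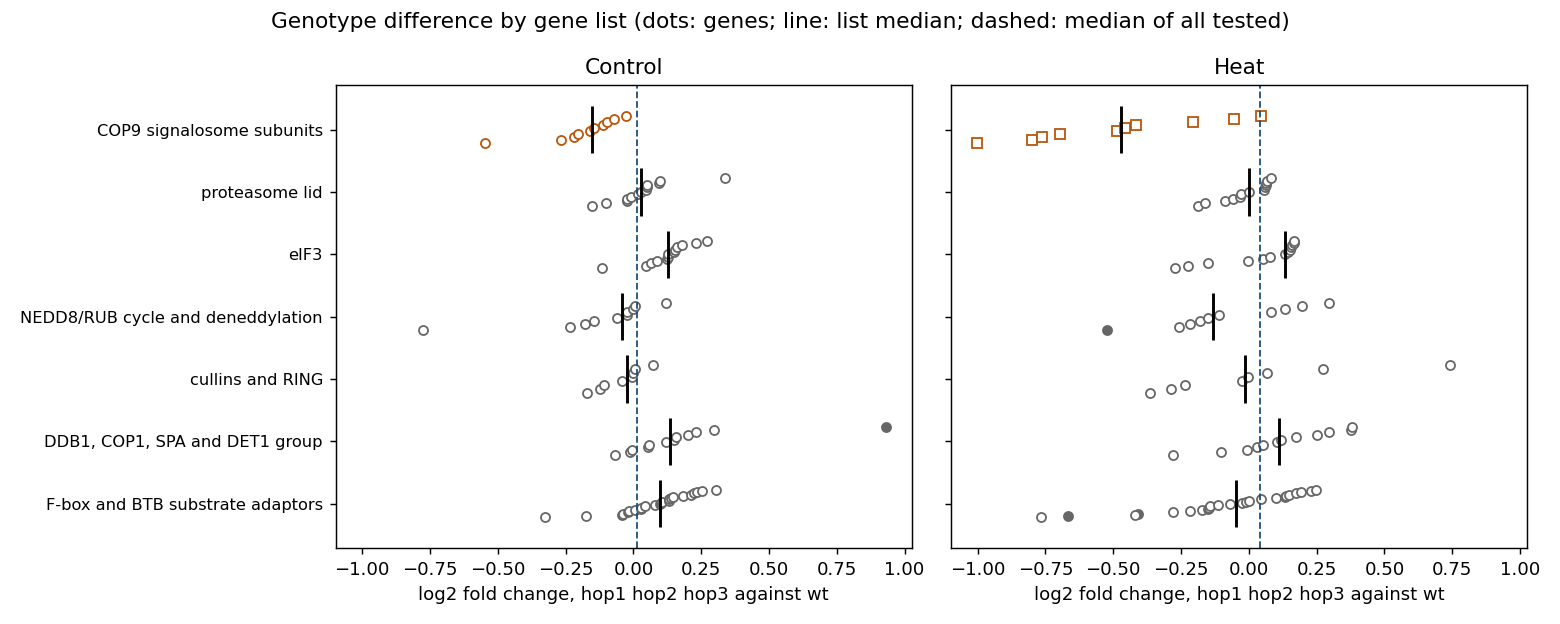
Log2 difference of hop1 hop2 hop3 from wt (x axis) in control (left) and heat (right) for the genes of 7 lists (y axis), with filled dots for an adjusted p under 0.05, open squares for the signalosome genes in heat, where they were selected and not tested, a line at each list's median and a dashed line at the median of all tested genes. In control all 10 signalosome genes lie below 0 and none is filled; in heat the median is -0.47.

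The subunit genes did not share 1 pattern. Pearson's r over the 12 libraries, between a gene and the mean of the other 9 on the log2 scale, was 0.96 for CSN3, 0.94 for CSN4 and 0.92 for CSN8, and 0.83 for CSN2. It was 0.72 for CSN1, 0.59 for CSN6A, 0.53 for CSN7, 0.49 for CSN5B and 0.07 for CSN6B, and -0.46 for CSN5A. Among 16181 other genes with a mean of at least 50 normalized fragments, CSN3 would rank 19 and CSN4 would rank 72 by this measure, and CSN5A 9918. The 5 other genes closest to the mean of all 10 were AT1G80245, AT1G60670, GRF7, AT4G37090 and AT5G22050, each with r = 0.98. GRF7 (AT3G02520), a 14-3-3 protein gene, had means of 1173 and 1756 normalized fragments in wt without and with heat, and of 1045 and 1351 in hop. These correlations rest on 12 libraries that fall into 4 groups sharing the heat treatment, and are descriptions.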

How the data were processed

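The deposited table holds signal values that the authors call normalized fragments: fragment counts divided by a size factor per library. The submitters' processing notes name TopHat2 2.1.0, HTSeq and DESeq2 1.1.14, and the labels name a stranded mRNA kit; the genome build, read length and counting settings are not given in the sources used here. Whole fragments were recovered from the steps of the values (100% of values within 0.01 of a whole number in every library), which gave 26074669 to 38722218 fragments per library, and served the count-based alternatives. Genes that reached 1 normalized fragment in 3 or more libraries were tested (23827 of 32833) with limma 3.58.1 (trend and robust) in R 4.3.3 on log2(value + 1), in 1 fit of 4 group means, with Benjamini-Hochberg adjustment over all tested genes. The deposited log2-scale results of the authors were not used.

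The 10 members and the 10 other gene lists (108 genes in all, with the targeted genes) were chosen with earlier results of these data known. Named were all members, the 3 targeted genes, up to 3 called genes with the largest change per pathway list and comparison (mean of at least 10), and 10 pathway genes fixed by name. Alternatives were pseudocounts of 0.5 and 10, no filter, edgeR 4.0.16 with TMM or library size, DESeq2 1.42.0, fits of 2 groups, the replicate block and leaving out each library. Deviations of same-numbered libraries from their group means correlated at 0.31, 0.18 and 0.17 between wt control and hop control, and those of unlike number at -0.23 to 0.07. Between wt heat and hop heat the same-numbered values were 0.06, 0.10 and 0.18. Libraries of unlike number in other groups also reached 0.18 (wt heat replicate 2 with hop control replicate 1). Whether the numbers pair libraries was therefore not established. Gene models and sequences come from RefSeq TAIR10.1, matched by locus (108 of 108). The table holds loci without coordinates, and its symbol column exchanges the names CSN5A and CSN5B relative to RefSeq; RefSeq names are used. The script was tested on simulated data.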

Additional observations from a re-analysis of the deposited data

Results flagged for a closer look

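For CSN5A, the heat change in hop differed from that in wt by -0.86 on the log2 scale, 1 of 12 such differences called among all genes; it includes the heated libraries on which the genes were selected and is a description. For HOP2, the heat change was larger in hop by 5.34 on the log2 scale (limma adjusted p = 1.27e-10), from a hop control level of 6.36 to 7.68 normalized fragments. For BPM5, every heated library lay above the controls in wt and below them in hop, and the difference of the heat changes was -0.67 (limma adjusted p = 0.10, which misses the threshold).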

How the results depend on the processing

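Of the counts of subunit genes called, those for heat in wt (8), heat in hop (8) and hop against wt in control (0) stayed within 1.5 times under every alternative; leaving out 1 library gave 8, 7 to 8 and 0. The count for the difference of heat changes, a description here, was 1, and became 0 by library size, 2 by DESeq2 and 0 to 1 when 1 library was left out. The cause was not tested.

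Library size scaling turned these log2 heat changes negative, CSN5B and CSN6B in wt without a call before, as its median of all genes lies near -0.94 in wt and -0.97 in hop. In wt they were -0.44 for CSN1, -0.11 for CSN3, -0.088 for CSN4, -0.68 for CSN5B, -0.51 for CSN6A, -0.88 for CSN6B, -0.10 for CSN8, -0.41 for AXR1, -0.075 for RUB1, -0.039 for EIF3C1, -0.077 for CUL1, -0.41 for RCE1 and -0.13 for ECR1. In hop they were -0.40 for CSN3, -0.56 for CSN4, -0.18 for CSN5B, -0.35 for CSN8, -0.67 for AXR1, -0.069 for RUB1, -0.024 for EIF3G1, -0.10 for EIF3C1, -0.10 for EIF3E, -0.046 for CUL1, -0.32 for RCE1 and -0.42 for ECR1. CSN2 kept its direction but not its call, at 0.24 in wt and 0.05 in hop.

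Of 2961 recomputed values of single genes and shares, these included, 2876 were classed as unchanged. That class is not the same as keeping direction and side of the threshold. It includes the CSN5A difference of heat changes in settings that ended its call. It leaves out the CSN5A difference of hop heat from wt heat by library size, which stayed negative at -1.14.

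With the replicate block, which treats libraries of the same number as paired, 274 genes were called between the genotypes in control against 198 without it, and no subunit gene. The block raised the genes called for the difference of heat changes from 12 to 34, and ended the control call of HOP3 (-4.43), which 6 other alternatives ended too. Over all genes, hop against wt in control gave 440 calls by DESeq2 and 82 from 2 groups alone, and under heat 1219 by library size against 2053. The difference of heat changes gave 176 calls by DESeq2, 29 by TMM, 22 with a pseudocount of 10 and 4 by library size. Leaving out 1 library gave 54 (without wt control replicate 3) to 214 calls in control, 1079 (without hop heat replicate 1) to 2334 under heat, and 1 (without wt control replicate 3) to 94 (without hop heat replicate 3) for the difference of heat changes. In control the count also fell to between 69 and 116 without wt control replicate 2 or any hop control replicate, and under heat to 1133, 1180 and 1196 without hop heat replicate 2 and wt heat replicates 1 and 3. CSN5B rested on 19 to 75 fragments per library.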
